A study of Rattus norvegicus with 82 samples.

Results

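The 10 cardiomyocyte and matrix integrin genes were taken by their symbols, whatever their values. The count table held 7 of these 10 genes among its 17337, and all 7 were among the 11954 genes that passed the filter on low counts. *Itga3*, *Itga9* and *Itgav* were not analysed here.

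Expression was measured by RNA-seq in 82 libraries of cardiomyocytes, 1 from the right ventricle (RV) and 1 from the left ventricle (LV) of each of 41 rats. The rats were first-generation offspring of Wistar Kyoto females and Lewis males and carried no transgene. A clip around the pulmonary artery (PAB) loaded the RV, a clip around the ascending aorta (AOB) loaded the LV, and sham rats had surgery without a clip. The H stage, compensated hypertrophy, held 7 Sham-H, 6 PAB-H and 6 AOB-H rats aged 11 weeks, 7 weeks after surgery. The F stage, heart failure, held 9 Sham-F and 7 AOB-F rats aged 31 weeks, 26 weeks after surgery, and 6 PAB-F rats aged 28 weeks, 22 weeks after surgery. These are the labelled ages, which imply different ages at surgery and differ from the age at surgery in the study's methods. Banding and the younger labelled age of PAB-F cannot be told apart. Both sexes were in every group, with 4 males and 2 females in PAB-H and PAB-F, 4 males and 3 females in AOB-F, 2 males and 4 females in AOB-H, 3 males and 4 females in Sham-H and 4 males and 5 females in Sham-F. Cells were freed by perfusion of the heart with collagenase, so that cells other than cardiomyocytes may remain, and in such bulk libraries fewer cells of a type and less RNA per cell cannot be told apart.

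Integrins are cell surface receptors built from 1 alpha and 1 beta chain that tie the cytoskeleton to the matrix and carry force and signal in both directions. In the adult cardiomyocyte, alpha7 (*Itga7*) paired with beta1 (*Itgb1*) is the laminin receptor of the costamere, the rib-like site where the Z-disc is anchored to the membrane. Other alpha chains that pair with beta1 bind collagen (alpha1, *Itga1*), fibronectin (alpha5, *Itga5*) or laminin (alpha6, *Itga6*), while beta3 (*Itgb3*) and beta5 (*Itgb5*) pair with alphav and bind ligands with an RGD motif.

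Library totals ran from 6675287 to 19665439 counts, with a median of 13074486. The 9 cardiomyocyte markers, *Myh6* and *Tnnt2* among them, took 4.54% to 13.3% of the counts of a library, against 0.0585% to 0.473% for 7 endothelial, 0.0152% to 0.301% for 10 fibroblast, 0.00586% to 0.0674% for 8 macrophage and 0.000259% to 0.00137% for 5 platelet markers. The first principal component of all genes, with 46.96% of the variance, scored above 20 in 21 of 22 LV libraries of the F stage, in 4 of 19 LV libraries of the H stage and in no RV library, where the highest score was 6.91. An LV library was taken to lie apart from its group at a score above 20 in the H stage or below 20 in the F stage. These 5 LV libraries were LV Sham-H 4 and 5, LV PAB-H 2, LV AOB-H 6 and LV PAB-F 5. A trend with gene length also moved with the ventricle in Sham-F. The slope of log2 counts on log2 length was -0.171 to -0.0218 in LV Sham-F and -0.0301 to 0.0550 in RV Sham-F libraries. At the H stage the median slope was higher in the LV than in the RV in Sham-H (0.0393 and 0.0198) and AOB-H (0.0418 and 0.00698). It was lower in the LV in PAB-H (0.0418 and 0.0696). Of the 7 integrin genes, 6 had a length percentile of 80.1 or more among all genes, and only *Itgb3* lay near the middle, at 49.4%.

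The laminin receptor chain *Itga7* was the most abundant of the 7 integrin transcripts compared here, which leaves out the other subunits. On the deposited FPKM scale, which is per length and allows genes to be compared, the median over the 82 libraries was 212 for *Itga7*, 133 for *Itgb1*, 69.99 for *Itga5*, 41.4 for *Itga6*, 38.4 for *Itgb5*, 28.8 for *Itga1* and 2.19 for *Itgb3*. *Itga7* was above 98.2% of all genes by this level, and *Itgb3*, known above all from platelets, was near the middle at 47.6%. The order held pair by pair in 76 of 82 libraries for *Itga7* over *Itgb1*, in 62 for *Itgb1* over *Itga5*, in 68 for *Itga5* over *Itga6* and in 65 for *Itgb5* over *Itga1*. *Itga6* and *Itgb5* were close neighbours, with *Itga6* higher in 49 of 82 libraries. Only *Itgb3* was separated from its neighbour in every library.

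**Figure D1:**
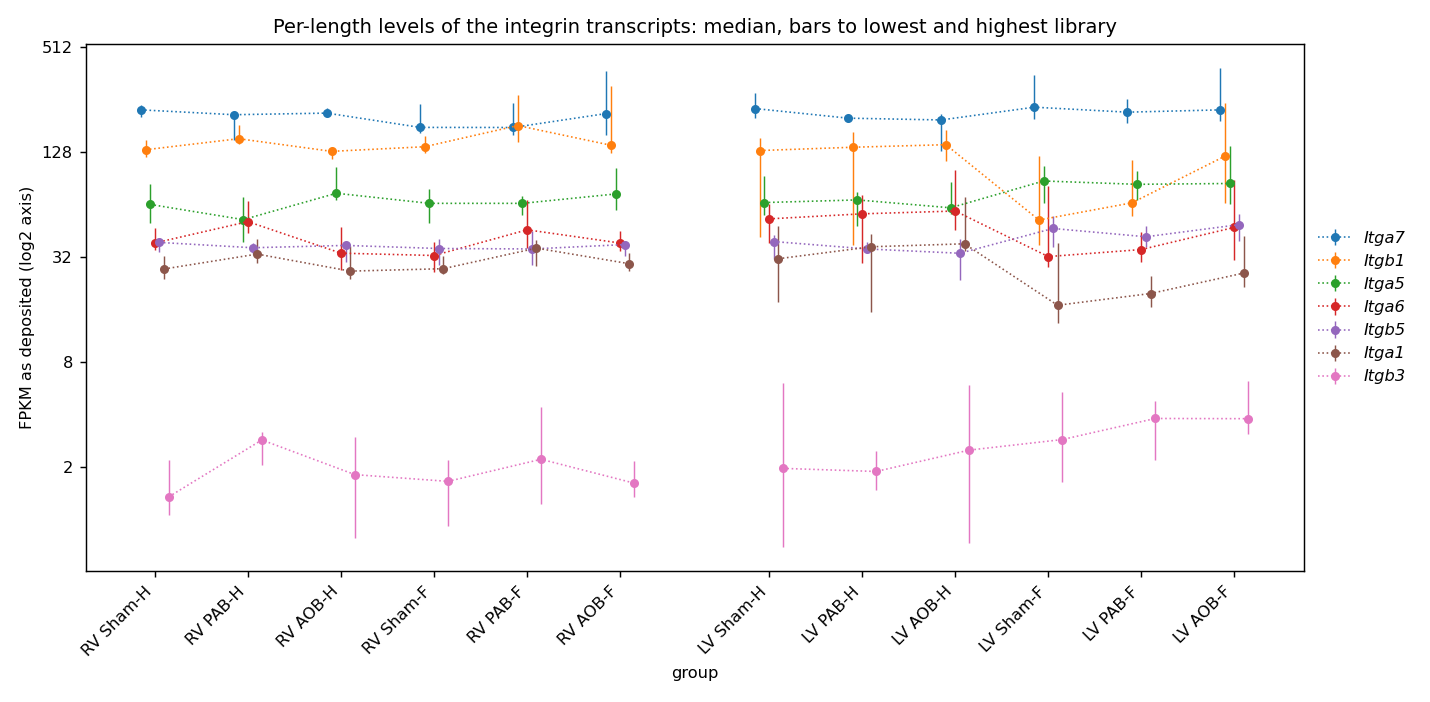
FPKM of the 7 integrin genes (y axis, log2 scale) in the 12 groups (x axis), with points at the group median and bars to the lowest and highest library of the 6 to 9 in a group. *Itga7* lies on top in 11 of 12 groups, while the *Itgb1* median runs from 52.4 in LV Sham-F to 182 in RV PAB-F.

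*Itga7* had the highest FPKM median in 11 of 12 groups, between 178 in RV Sham-F and 232 in LV Sham-F among those 11. The exception was RV PAB-F, where *Itgb1* stood at 182 and *Itga7* at 178, with overlapping ranges. Within single libraries of RV PAB-F, *Itgb1* was above *Itga7* in only 2 of 6. The *Itgb1* median was 52.4 in LV Sham-F and 65.8 in LV PAB-F, below that of *Itga5*, the fibronectin receptor chain, at 87.7 and 84.0, although the ranges overlapped there too. In the other 10 groups *Itgb1* lay above *Itga5*. The ratio of *Itga7* to *Itgb1* FPKM followed from this, with a median of 1.71 in RV Sham-H (1.37 to 1.91), 1.40 in RV Sham-F (1.17 to 1.86), 2.02 in LV Sham-H (1.53 to 5.50) and 5.26 in LV Sham-F (1.78 to 7.43). It was 2.98 in LV PAB-F, 1.73 in LV AOB-F and 1.07 in RV PAB-F. Within each of the 12 groups normalized counts per length gave the same order of genes. This is no separate check, since the lengths were derived from the FPKM themselves.

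Values below are normalized counts, that is raw counts scaled to a library of 13279120 counts by TMM factors, and differences are log2 fold changes of edgeR with their standard error (SE). A gene was called at an adjusted p under 0.05 over all 11954 genes. Each rat gave 1 library per ventricle. The spread behind a p-value was estimated for each gene over all 82 libraries, RV and LV, and not within the groups compared alone. The fit held no term for the rat, so that the RV and LV library of 1 rat were treated as unpaired. For RV against LV, calls that changed with the rat as a block are given below.

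Which integrin genes changed when the RV was loaded was asked with PAB against sham. In decompensated hearts the laminin receptor chain *Itga6* rose in the RV. Its normalized count ran from 2110 to 3172 in 9 RV Sham-F libraries, with a median of 2621, and from 2987 to 5559 in 6 RV PAB-F libraries, with a median of 3746. Of the 6 PAB-F libraries, 5 lay above every sham library, and 1 lay within the sham range. The log2 fold change was 0.56 (SE 0.18, adjusted p = 0.0294 by edgeR). *Itga6* was the 1 of 7 integrin genes called here, against 11.1% of all genes, and 4 of the 7 had an unadjusted p under 0.05.

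*Itgb1*, the common partner chain, was 6192 to 7789 in RV Sham-F (median 6763) and 7405, 7506, 7792, 10415, 11703 and 13748 in RV PAB-F. The 3 lowest PAB-F values lay within or next to the sham range and 4 of 6 lay above every sham library. The log2 fold change of 0.53 (SE 0.24, 95% interval 0.04 to 1.02) was not called (adjusted p = 0.141). *Itga1*, the collagen receptor chain, had 1371 to 1729 in RV Sham-F and 1530 to 2158 in RV PAB-F (log2 fold change 0.36, SE 0.17, adjusted p = 0.147). *Itgb3* stood at 46.2 ± 13.1 (SD, n = 9) in sham and 73.04 ± 31.8 (SD, n = 6) in PAB-F (log2 fold change 0.65, SE 0.29, adjusted p = 0.131). The other 3 genes lay close to 0, with log2 fold changes of -0.01 for *Itga5*, -0.04 for *Itga7* and 0.03 for *Itgb5*, all with an adjusted p of 0.859 or more. The median log2 fold change of the 7 genes was 0.36, and that of all genes 0.02.

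This result depended on which libraries set the spread. Fitted to RV PAB-F and RV Sham-F alone, *Itga6* (adjusted p = 0.00594), *Itga1* (adjusted p = 0.00493) and *Itgb1* (adjusted p = 0.0067) were called, where that fit called 24.6% of all genes. With all groups fitted *Itga6* lost its call without RV PAB-F 1 or 2 or without RV Sham-F 5, 8 or 9 (adjusted p from 0.0514 to 0.131). Fibroblast markers rose beside it, 5 of the 9 tested of 10, and their summed share was 0.0152% to 0.0509% in RV Sham-F and 0.0278% to 0.193% in RV PAB-F. Of 7 endothelial markers 1 rose, with a share of 0.0585% to 0.0983% in sham and 0.0751% to 0.186% in PAB-F. Of 8 macrophage markers 3 rose (0.00596% to 0.0116% in sham and 0.00635% to 0.0318% in PAB-F), and of 7 mural markers 2 rose. The part of these markers in the integrin result was not tested.

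In compensated hearts none of the 7 integrin genes was called in the RV by edgeR, DESeq2 or limma, against 4.50% of all genes by edgeR, and 2 had an unadjusted p under 0.05. *Itgb3* had the highest log2 fold change of the 7. Its normalized count was 31.0 to 64.2 in RV Sham-H (median 39.2) and 60.5 to 93.8 in RV PAB-H (median 86.0), and 5 of 6 PAB-H libraries lay above every sham library. Its log2 fold change was 0.86 (SE 0.31, 95% interval 0.24 to 1.47, adjusted p = 0.0873), and without the 5 LV libraries that lay apart it was 0.84 (adjusted p = 0.032). That setting was chosen after seeing the data and leaves the RV libraries as they are. It called 1193 of all genes in RV PAB-H, against 538 with all libraries. *Itga6* was next with 3224 ± 334 (SD, n = 7) in sham and 4280 ± 694 (SD, n = 6) in PAB-H (log2 fold change 0.41, SE 0.19, adjusted p = 0.198). Fitted to RV PAB-H and RV Sham-H alone, 4 genes were called, namely *Itga6* (adjusted p = 0.0171), *Itgb3* (adjusted p = 0.0148), *Itga1* (adjusted p = 0.0304) and *Itgb1* (adjusted p = 0.0387), where that fit called 14.9% of all genes. Fibroblast markers were higher here as well, 9 of 9 tested, with 1 of 7 endothelial and 1 of 7 mural markers.

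Aortic banding gave the widest integrin difference of the loaded LV in *Itgb1*. Its normalized count was 1846 to 6021 in 9 LV Sham-F libraries (median 2574). In LV AOB-F it was 3181, 3276, 3446, 5969, 7930, 9860 and 12049, so that the groups overlapped although 3 of 7 libraries lay above every sham library. The log2 fold change was 1.13 (SE 0.24, 95% interval 0.66 to 1.60), a 2.19-fold difference of the fitted means, with an adjusted p of 0.000975. *Itga1* rose with a log2 fold change of 0.50 (SE 0.16, adjusted p = 0.0323), from 706 to 2043 in LV Sham-F (median 899) and 1137 to 2257 in LV AOB-F (median 1374). *Itga6* rose with a log2 fold change of 0.51 (SE 0.17, adjusted p = 0.0377), from 2262 to 6543 in sham (median 2564) and 2474 to 7168 in AOB-F (median 3759). For both, 1 of 7 AOB-F libraries lay above every sham library. These 3 of 7 genes were called, against 12.9% of all genes, and all were higher.

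The *Itgb1* values of LV AOB-F ranged widely, and the highest 2 came from AOB-F rats 6 and 7. The same 2 rats had 14725 and 15358 in the RV, where the other 5 AOB-F rats had 6335 to 8351. Their libraries also held the lowest shares of the cardiomyocyte markers of their groups, 4.54% and 4.74% in the LV and 7.72% and 7.85% in the RV, and the highest LV shares of macrophage markers, 0.0567% and 0.0674%. Without both rats *Itgb1* had a log2 fold change of 0.68 (adjusted p = 0.0733) and *Itga1* one of 0.51 (adjusted p = 0.0959), while *Itga6* had 0.74 (adjusted p = 0.0172). Fitted to LV AOB-F and LV Sham-F alone, none of the 3 was called (adjusted p = 0.0886 for *Itgb1*, 0.188 for *Itga1* and 0.259 for *Itga6*), and that fit called 0.133% of all genes. When 1 library was left out, *Itgb1* kept its call in 16 of 16 cases. *Itga1* lost it in 8 of 16, without LV Sham-F 1, 2, 5, 7 or 8 or LV AOB-F 1, 6 or 7 (adjusted p from 0.0515 to 0.162). *Itga6* lost it in 10 of 16, without LV Sham-F 1, 2, 5, 6, 7, 8 or 9 or LV AOB-F 1, 2 or 4 (adjusted p from 0.0549 to 0.208).

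Other cell types moved with this comparison. In LV AOB-F 5 of 8 macrophage markers rose, with a share of 0.0104% to 0.0249% in LV Sham-F and 0.0109% to 0.0674% in LV AOB-F, and without rats 6 and 7 none of the 8 was called. Of 7 endothelial markers 2 rose, 0.150% to 0.321% in sham and 0.164% to 0.360% in AOB-F, and 1 of 7 mural markers rose. None of the 9 fibroblast markers tested was called, and 1 of 3 platelet markers tested was lower. Their part in the integrin values was not tested. The other 4 integrin genes were not called, with log2 fold changes of 0.03 for *Itga5*, 0.06 for *Itga7*, 0.29 for *Itgb3* and 0.09 for *Itgb5* (adjusted p from 0.489 to 0.912).

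In the compensated LV none of the 7 was called upon AOB by edgeR, DESeq2 or limma, against 0.0167% of all genes by edgeR. *Itga1* had 946 to 2637 in LV Sham-H (median 1682) and 1863 to 3820 in LV AOB-H (median 2054), and 1 AOB-H library lay above every sham library. The log2 fold change was 0.51 (SE 0.18, 95% interval 0.15 to 0.87) with an adjusted p of 0.128. *Itga7* had -0.30 (SE 0.14, adjusted p = 0.218), and these 2 genes had an unadjusted p under 0.05.

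In the ventricle that was not loaded no integrin gene was called by any of the 3 tools. This held for RV AOB-H, against 0% of all genes by edgeR, RV AOB-F, against 0.0669%, LV PAB-H, against 0%, and LV PAB-F, against 0%. *Itga5* had an unadjusted p under 0.05 in RV AOB-H (log2 fold change 0.32, SE 0.15) and in RV AOB-F (log2 fold change 0.29, SE 0.13), both with an adjusted p of 1. *Itgb1* in RV AOB-F had a log2 fold change of 0.46 (95% interval -0.00396 to 0.93, adjusted p = 1), and 0.05 without rats 6 and 7. The response of the loaded ventricle was then set against that of the other ventricle of the same rats. It did not differ beyond the threshold for any of the 7, for PAB-F against 0.351% of all genes called and for AOB-F against 0%. The interval for *Itgb1* upon AOB, LV minus RV, was 0.00256 to 1.34 around 0.67 (adjusted p = 0.513), and for *Itga6* upon PAB, RV minus LV, 0.11 to 1.13 around 0.62 (adjusted p = 0.304). Each of these 2 had an unadjusted p under 0.05, and DESeq2 and limma called none of the 7 in either comparison.

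**Figure D2:**
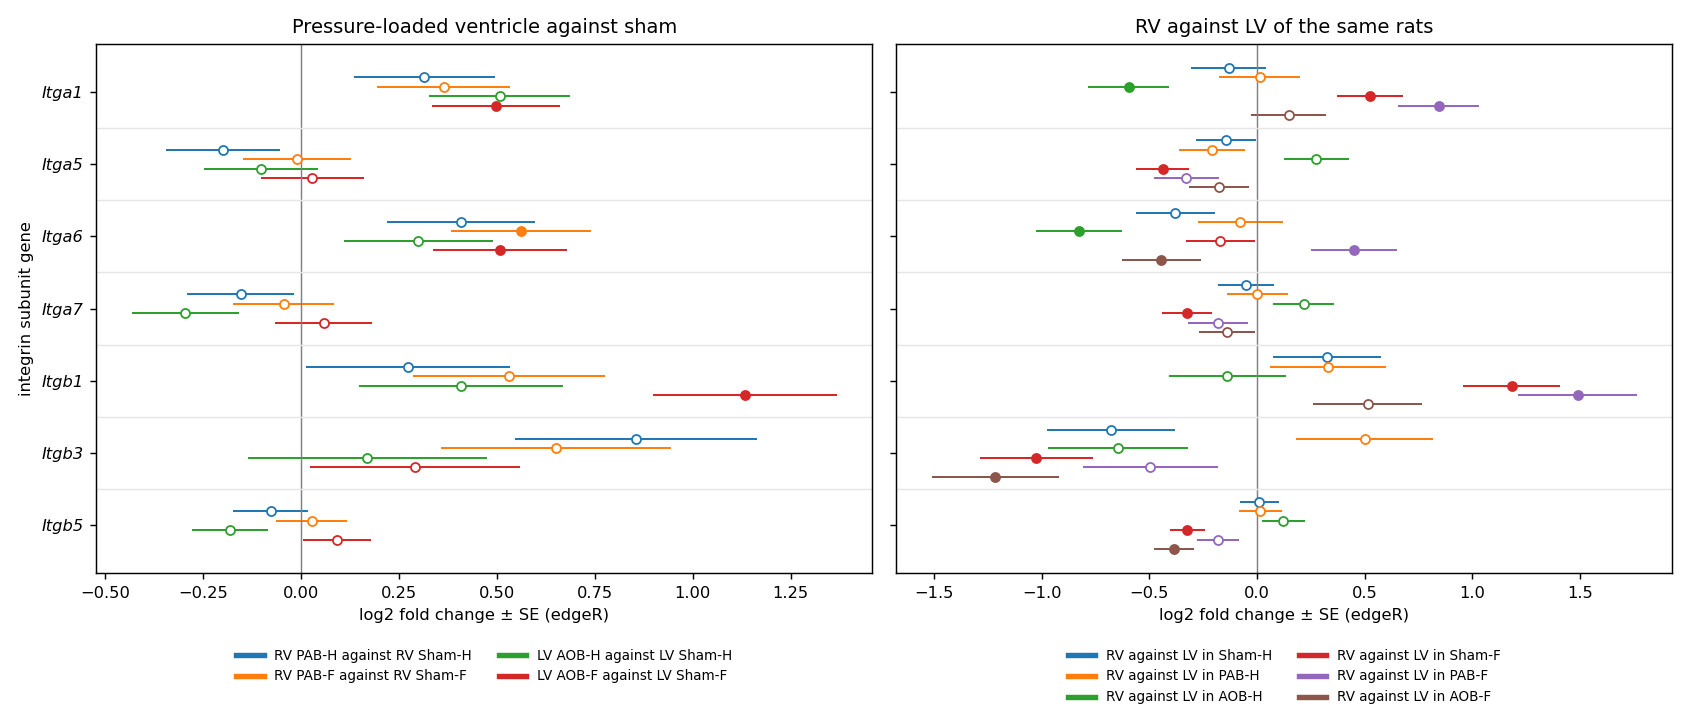
Log2 fold change with its SE by edgeR (x axis) for the 7 integrin genes (y axis), for the loaded ventricle against sham on the left and for RV against LV on the right, with 1 colour per comparison and filled points where the adjusted p was under 0.05. *Itgb1* reaches 1.13 in LV AOB-F against sham and 1.49 in RV against LV of PAB-F, and the *Itga7* points lie between -0.32 and 0.22.

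Next, the RV was compared with the LV of the same rats, where *Itgb1* differed most in the older ones. In Sham-F *Itgb1* was 6192 to 7789 in 9 RV libraries (median 6763) and 1846 to 6021 in 9 LV libraries (median 2574). The groups did not overlap, as was the case for 41.8% of all genes, and the RV was higher in 9 of 9 rats. The log2 fold change was 1.18 (SE 0.22, 95% interval 0.74 to 1.63, adjusted p = 2.85e-06), a 2.27-fold difference. *Itga1* was also higher in the RV, with 1371 to 1729 against 706 to 2043 (log2 fold change 0.52, SE 0.15, adjusted p = 0.00174), in 8 of 9 rats. A single LV library, Sham-F 3, had the highest LV value of both genes.

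Another 4 integrin genes were lower in the RV of Sham-F. *Itgb5*, a receptor chain for vitronectin, had 1436 to 2034 in the RV and 1807 to 2703 in the LV (log2 fold change -0.32, SE 0.08, adjusted p = 0.000285) and was lower in the RV of 9 of 9 rats. *Itgb3* had 26.4 to 62.9 in the RV and 47.4 to 155 in the LV (log2 fold change -1.02, SE 0.26, adjusted p = 0.000391), and was lower in 8 of 9 rats. *Itga5* was lower as well (log2 fold change -0.44, SE 0.12, adjusted p = 0.00112), and so was *Itga7* (log2 fold change -0.32, SE 0.12, adjusted p = 0.00967), which lost its call without LV Sham-F 2 (adjusted p = 0.0891). Only *Itga6* was not called (log2 fold change -0.17, adjusted p = 0.339). In all 6 of 7 integrin genes were called, 2 higher and 4 lower in the RV, beside 74.3% of all genes.

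The ventricles of Sham-F also differed in their markers. Of 7 endothelial markers 5 were lower and 1 higher in the RV, with a summed share of 0.0585% to 0.0983% in the RV and 0.150% to 0.321% in the LV. Of the 9 fibroblast markers tested 7 were lower, and of 9 cardiomyocyte markers 6 were higher and 2 lower, with a share of 9.87% to 13.3% in the RV and 6.69% to 9.19% in the LV. Also lower in the RV were 5 of 7 mural and 3 of 8 macrophage markers, and 2 of the 3 platelet markers tested of 5, beside the lower *Itgb3*. The platelet share was 0.000273% to 0.00064% in the RV and 0.000312% to 0.000971% in the LV. No marker of the endothelial list was at 0 in all libraries of a group. After the trend with gene length was removed, *Itgb1* had a log2 fold change of 1.11 (adjusted p = 3.04e-06) and *Itga1* one of 0.42 (adjusted p = 0.00282), and *Itga6* was called lower (-0.42, adjusted p = 0.00559). With the rat as a block *Itgb1* had 1.29 (adjusted p = 3.82e-08). The part of the cell markers was not tested.

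**Figure D3:**
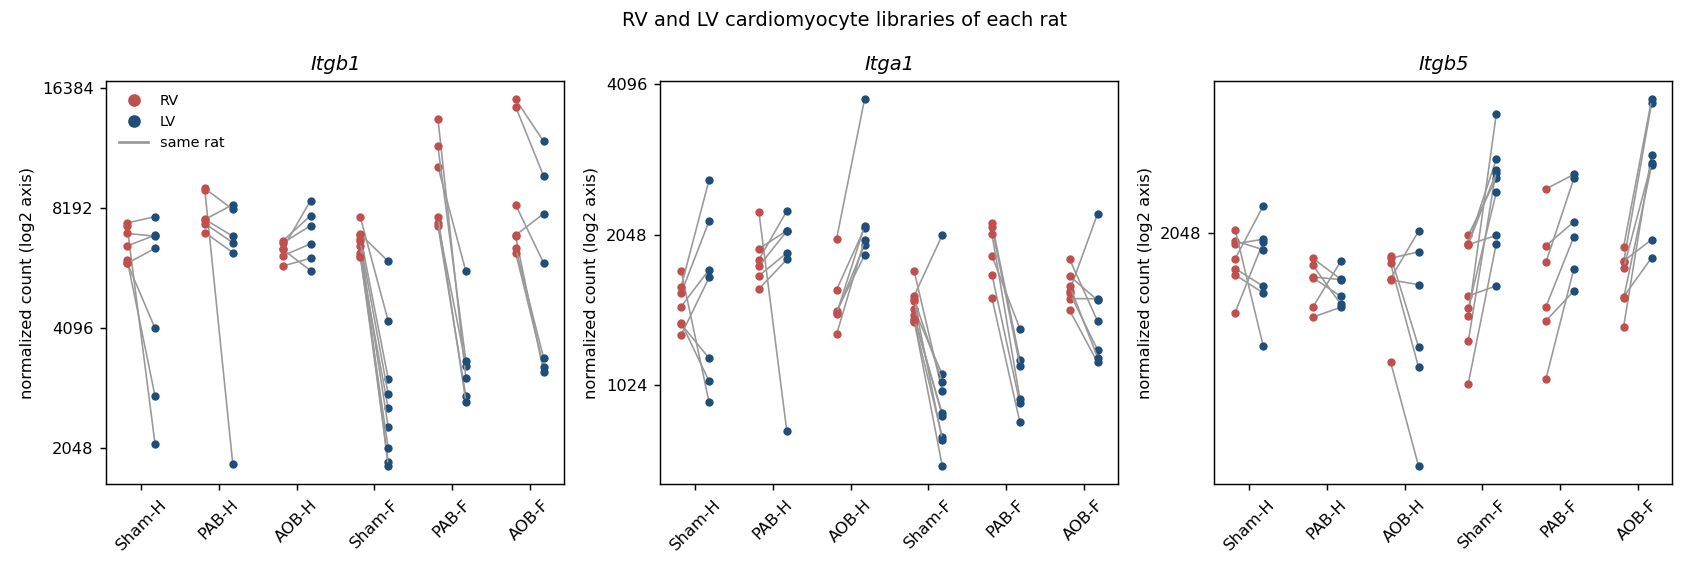
Normalized counts (y axis, log2 scale) of *Itgb1*, *Itga1* and *Itgb5* in the RV and LV library of each rat, joined by a line, in the 6 conditions (x axis). In Sham-F the RV is higher in *Itgb1* in 9 of 9 rats and lower in *Itgb5* in 9 of 9.

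In PAB-F the RV excess of *Itgb1* was 7405 to 13748 against 2676 to 5682 in the LV, without overlap, in 6 of 6 rats. This gave a log2 fold change of 1.49 (SE 0.28, adjusted p = 5.24e-06). *Itga1* did not overlap either, with 1530 to 2158 in the RV and 862 to 1327 in the LV (log2 fold change 0.84, SE 0.19, adjusted p = 9.58e-05). These were 2 of 7 integrin genes without overlap, against 23.2% of all genes. *Itga6* was the third gene called (log2 fold change 0.45, SE 0.20, adjusted p = 0.0428), but had 0.17 (adjusted p = 0.396) after the trend with gene length was removed. It also lost its call without any 1 of RV PAB-F 1 or 2 or LV PAB-F 1, 2, 4 or 6 (adjusted p from 0.057 to 0.153). In all 3 of 7 were called, all higher in the RV, beside 61.1% of all genes. With the rat as a block *Itga5* was called as well, lower in the RV (log2 fold change -0.32, adjusted p = 0.00771). Here 4 of 7 endothelial markers were lower and 1 higher in the RV, 5 of 7 mural, 3 of 9 tested fibroblast and 3 of 8 macrophage markers were lower, and 1 fibroblast and 1 platelet marker were higher. Of 9 cardiomyocyte markers 5 were higher and 2 lower. The part of these markers was not tested.

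In AOB-F the beta chains *Itgb3* and *Itgb5* were lower in the RV, and *Itgb1* was not called. *Itgb1* had 6335 to 15358 in the RV and 3181 to 12049 in the LV (log2 fold change 0.51, SE 0.25, adjusted p = 0.0648), and was higher in the RV of 6 of 7 rats. With the rat as a block it was called (log2 fold change 0.61, adjusted p = 0.00852). *Itgb3* was lower in the RV, with 39.4 to 64.02 against 90.3 to 179 and no overlap, which 30.3% of all genes shared (log2 fold change -1.21, SE 0.30, adjusted p = 0.000252). *Itgb5* was lower in 7 of 7 rats (log2 fold change -0.39, SE 0.09, adjusted p = 0.000196). *Itga6* was lower (log2 fold change -0.45, SE 0.18, adjusted p = 0.0276) but missed the threshold with the rat as a block (-0.34, adjusted p = 0.0521), and without any 1 of LV AOB-F 1, 2 or 4 or RV AOB-F 2 or 4 (adjusted p from 0.0564 to 0.169). Thus 3 of 7 were called, beside 67.1% of all genes. Endothelial markers were lower in the RV in 6 of 7 here, and macrophage markers in 7 of 8. Fibroblast markers were lower in 7 of 9 tested and mural markers in 5 of 7, while 6 of 9 cardiomyocyte markers were higher and 1 lower, and 1 platelet marker was higher and 1 lower. The part of these markers was not tested.

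In the younger rats fewer differences were called. In Sham-H none of the 7 integrin genes was called by edgeR, DESeq2 or limma, against 21% of all genes by edgeR, and *Itgb3* (log2 fold change -0.68, SE 0.30, adjusted p = 0.0891) and *Itga6* (log2 fold change -0.38, SE 0.18, adjusted p = 0.122) had an unadjusted p under 0.05. *Itgb1* was 5949 to 7515 in RV Sham-H, and in LV Sham-H it was 6493 to 7798 in 4 libraries and 2089, 2758 and 4086 in the other 3. The 2 lowest were the libraries LV Sham-H 4 and 5 that lay apart. In PAB-H none was called by edgeR, DESeq2 or limma, beside 0.125% of all genes, and 0 of 7 had an unadjusted p under 0.05. Here *Itgb1* was 6337 to 8356 in 5 LV libraries and 1864 in the library LV PAB-H 2 that lay apart.

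In AOB-H *Itga6* and *Itga1* were lower in the RV, as 2 of 7 genes called beside 7.98% of all genes. *Itga6* had 2218 to 3905 in the RV and 3727 to 8191 in the LV (log2 fold change -0.83, SE 0.20, adjusted p = 0.00321), and was lower in the RV of 6 of 6 rats. *Itga1* had 1293 to 2008 in the RV and 1863 to 3820 in the LV (log2 fold change -0.60, SE 0.19, adjusted p = 0.0328). Both LV maxima came from the library LV AOB-H 6, which had 0.473% of its counts in endothelial markers, the highest of all libraries, and the lowest total. That library was also the highest of its group in fibroblast, mural, macrophage and platelet markers. Without the 5 libraries that lay apart *Itga6* had -0.65 (adjusted p = 0.0338) and *Itga1* -0.39 (adjusted p = 0.168). Without LV AOB-H 6 alone *Itga6* had an adjusted p of 0.0679 and *Itga1* one of 0.363, and *Itga1* also lost its call without any 1 of RV AOB-H 1 to 5 (adjusted p from 0.0534 to 0.0947). Of 7 endothelial markers 6 were lower in the RV of AOB-H, and no marker of the other 5 lists was called. The part of the cell markers was not tested.

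Sham rats of both stages, which differ in age and time after surgery, were then compared within each ventricle. In the RV no integrin gene differed between Sham-F and Sham-H by edgeR, DESeq2 or limma, beside 0.0502% of all genes, and 0 of 7 had an unadjusted p under 0.05. *Itgb1* stood at 6754 ± 509 (SD, n = 9) and 6649 ± 673 (SD, n = 7). In the LV 5 of 7 were called, beside 57.4% of all genes. *Itgb1* was lower in LV Sham-F, at 2977 ± 1366 (SD, n = 9) against 5313 ± 2294 (SD, n = 7) (log2 fold change -0.84, SE 0.24, adjusted p = 0.00193). *Itga1* was lower (log2 fold change -0.66, SE 0.16, adjusted p = 0.000458) and *Itga6* too (-0.45, SE 0.17, adjusted p = 0.0196). *Itga5* was higher (0.32, SE 0.13, adjusted p = 0.0329) and so was *Itgb5* (0.24, SE 0.09, adjusted p = 0.0138). The *Itga5* call was lost in 8 of 16 cases with 1 library left out, namely LV Sham-H 1, 2, 3 or 5 or LV Sham-F 5, 6, 7 or 8 (adjusted p from 0.0507 to 0.0871). That of *Itga6* was lost without LV Sham-H 2 or 3 (adjusted p = 0.0505 and 0.0586) and that of *Itgb5* without LV Sham-H 2 (adjusted p = 0.0626).

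The difference of RV minus LV was larger in Sham-F than in Sham-H by 0.86 log2 units for *Itgb1* (SE 0.33, adjusted p = 0.033) and by 0.66 for *Itga1* (SE 0.23, adjusted p = 0.019), and lower by a log2 difference of -0.34 for *Itgb5* (SE 0.12, adjusted p = 0.0233). These 3 of 7 were called, beside 41.6% of all genes. Without the 5 libraries that lay apart the *Itgb1* difference was 1.16 (adjusted p = 0.000508). Among these 5, LV Sham-H 4 and 5 were left out because their component score was like that of the F stage. A wider difference between the stages can thus follow from the choice of libraries and is no separate support. The *Itgb1* difference missed the threshold without any 1 of LV Sham-H 1, 2, 3 or 7 or LV Sham-F 8 or 9 (adjusted p from 0.0503 to 0.0787). *Itga1* missed it without LV Sham-H 3 (adjusted p = 0.0736), and *Itgb5* without LV Sham-H 2, LV Sham-F 2 or RV Sham-F 5 (adjusted p from 0.0543 to 0.0648). *Itgb3* was called too without the same 5 libraries, again with the limit of that choice. It was higher in LV Sham-F than in LV Sham-H (log2 fold change 0.94, adjusted p = 0.00209). LV Sham-H 4 had held the highest *Itgb3* count of its group. Of the markers, 2 of 7 endothelial, 5 of 7 mural, 5 of 9 tested fibroblast, 4 of 8 macrophage and 1 of 3 tested platelet genes were higher in LV Sham-F than in LV Sham-H. There 1 endothelial gene was lower, and of 9 cardiomyocyte genes 6 were lower and 2 higher. The part of these markers in the integrin values was not tested.

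**Figure D4:**
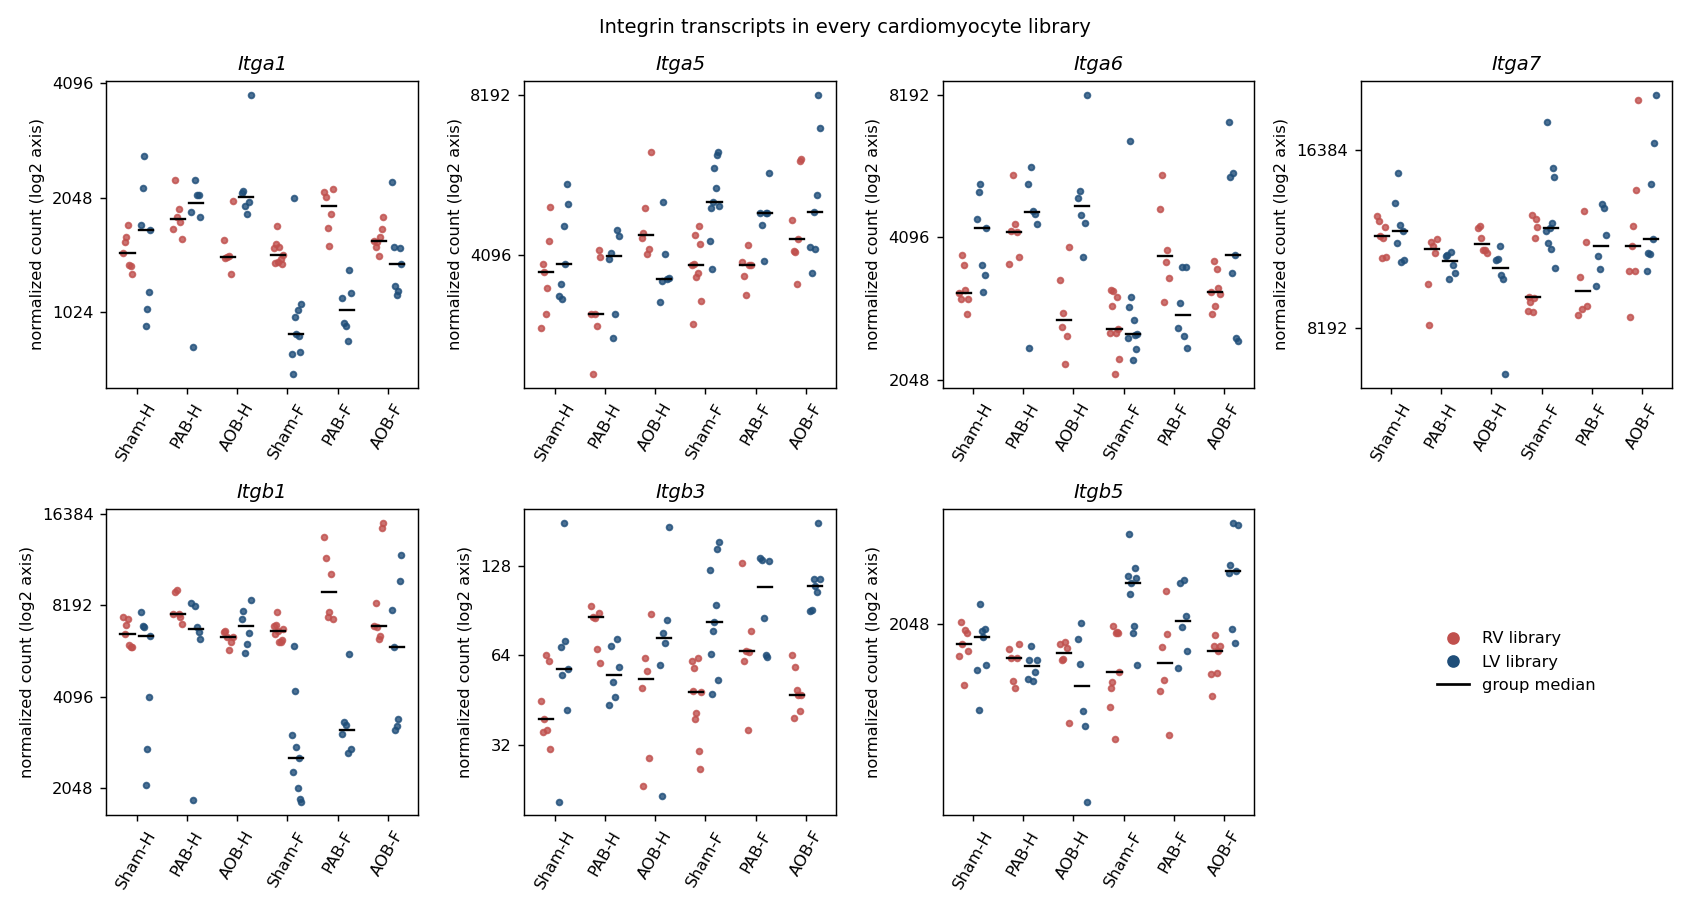
Normalized count (y axis, log2 scale) of each integrin gene in every RV and LV library of the 6 conditions (x axis), 6 to 9 per group, with bars at the group median. *Itgb1* in LV Sham-F runs from 1846 to 6021, below the 6192 to 7789 of RV Sham-F, and the *Itga7* medians of the 12 groups run from 9235 to 12081.

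Start regions of some of the genes called in RV against LV of Sham-F are shown for their base composition. RefSeq promoters on the GRCr8 assembly, which is not the assembly of the counts, were given for 4 of the 7 integrin genes. The 250 bases before the start are printed for *Itgb1* and *Itga1*, which were higher in the RV of Sham-F, and for *Itgb5*, which was lower. *Itga5*, also lower there, had an entry that is not printed. The *Itgb1* stretch is chr19:73602027-73602276 on the plus strand, that of *Itga1* chr2:48545284-48545533 on the minus strand and that of *Itgb5* chr11:80449374-80449623 on the minus strand. Capitals mark the GC box GGGCGG or its reverse complement.
Itgb1: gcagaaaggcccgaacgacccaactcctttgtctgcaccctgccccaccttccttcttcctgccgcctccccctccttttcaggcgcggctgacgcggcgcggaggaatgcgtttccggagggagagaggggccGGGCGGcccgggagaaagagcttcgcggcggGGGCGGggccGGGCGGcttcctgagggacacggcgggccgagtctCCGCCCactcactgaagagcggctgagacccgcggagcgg
Itga1: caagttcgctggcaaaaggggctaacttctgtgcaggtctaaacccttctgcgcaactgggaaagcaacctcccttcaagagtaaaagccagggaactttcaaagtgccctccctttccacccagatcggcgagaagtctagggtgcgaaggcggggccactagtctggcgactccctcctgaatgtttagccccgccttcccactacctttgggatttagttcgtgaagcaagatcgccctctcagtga
Itgb5: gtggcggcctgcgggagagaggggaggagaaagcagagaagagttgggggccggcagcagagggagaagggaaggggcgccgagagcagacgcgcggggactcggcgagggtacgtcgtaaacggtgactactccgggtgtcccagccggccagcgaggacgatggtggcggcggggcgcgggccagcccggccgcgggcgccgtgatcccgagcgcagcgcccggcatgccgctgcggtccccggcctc

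The *Itgb1* stretch held 71.2% G and C and 28 CpG, that of *Itgb5* 74.4% and 33, and that of *Itga1* 54.4%, against a median of 51.2% and 5 CpG over 33469 promoters of this length. The GC box was found 4 times before *Itgb1*, at 40 to 116 bases from the start, 1 time before *Itga5* and not before *Itga1* or *Itgb5*, and 30.5% of all promoters held it on either strand. A CATTCC element lay 146 bases before the *Itgb1* start, as 12.1% of promoters had in the window. The AP-1 site TGANTCA (6.34% of promoters), the TATA box TATAAA (12.9%) and the CArG box (1.5%) were found before none of the 4. A match is a run of letters and not a measured site.

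The integrin genes were then set against the markers of cell types within groups. For each gene the deviation of its log2 CPM (scaled counts) from the group mean was correlated with that of 4 marker lists, in 41 RV and 41 LV libraries apart, which gave 56 pairs with p-values from 100000 permutations within groups, 2-sided and adjusted over the 56. Of these 20 passed, 8 positive and 12 negative. With library totals in place of TMM factors 22 passed, 12 positive and 10 negative, and 17 of them were among the 20. Both sides of a pair come from 1 library and share its depth and scaling. *Itga6* was higher where endothelial markers were higher, in the LV (r = 0.71, rho = 0.58, adjusted p = 0.00134 and 0.00344) and in the RV (r = 0.51, rho = 0.50, adjusted p = 0.0119 and 0.00825). Without the 2 libraries with the most extreme scores r was 0.60 and 0.44. *Itga1* was positively related to the same markers in the RV (r = 0.68, rho = 0.55, adjusted p = 0.00134 and 0.00344, r = 0.51 without 2 libraries), and negatively to the cardiomyocyte markers there (r = -0.70, rho = -0.62, adjusted p = 0.00056 and 0.00168, r = -0.66 without 2 libraries), where the raw p of 1e-05 is the smallest the permutations can give. Its relation with endothelial markers in the LV (r = 0.41, adjusted p = 0.0284) rested on 2 libraries, since r was 0.14 without them (rho = 0.20, adjusted p = 0.326).

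The laminin receptor chain *Itga7* went the other way. It was negatively related to endothelial markers (r = -0.43 in the RV and -0.54 in the LV, rho = -0.49 and -0.44, adjusted p of r = 0.0042 and 0.014), but with library totals only the RV relation was not called (r = -0.25, adjusted p = 0.0985, against -0.50 and 0.00418 in the LV). Its r for fibroblast and mural markers was likewise below 0 and past the threshold in both ventricles under either scaling, and its relation with cardiomyocyte markers was not called (r = 0.33 and 0.22, adjusted p = 0.085 and 0.342). *Itgb1* had no detectable relation with endothelial markers (r = 0.03 in the RV and 0.01 in the LV, adjusted p = 0.887 and 0.974), and a negative one with cardiomyocyte markers in the RV (r = -0.51, rho = -0.52, adjusted p = 0.00162 and 0.00825, r = -0.45 without 2 libraries). *Itgb3* was negatively related to cardiomyocyte markers in the RV (r = -0.55, rho = -0.46, adjusted p = 0.00134 and 0.016) and positively to fibroblast, endothelial and mural markers there (r = 0.44, 0.59 and 0.48). *Itga5* was negatively related to endothelial markers in the LV (r = -0.60, rho = -0.64, adjusted p = 0.00134 and 0.00168), and *Itgb5* in the RV (r = -0.49, rho = -0.46, adjusted p = 0.0119 and 0.0167). Neither was called with library totals only (r = -0.32 and -0.12, adjusted p = 0.107 and 0.592). Without the 5 LV libraries that lay apart 17 pairs passed, 15 of them among the 20, and no pair with LV cardiomyocyte or LV fibroblast markers was left. None of the LV relations of *Itga7* was called over these 36 libraries, while *Itga6* with LV endothelial markers had r = 0.89 (rho = 0.80, adjusted p = 0.000187 and 0.00056).

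**Figure D5:**
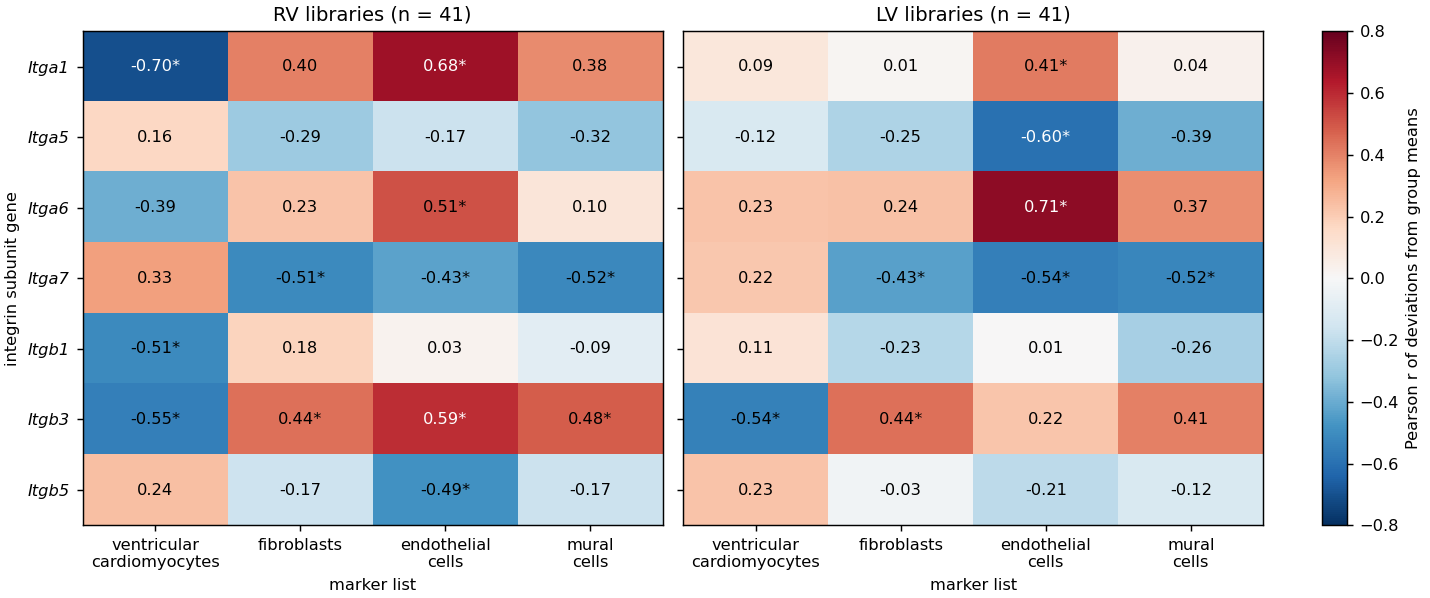
Pearson r of each integrin gene (rows) with 4 marker lists (columns) over deviations from group means, in 41 RV libraries on the left and 41 LV libraries on the right, with a star where the adjusted permutation p was under 0.05. *Itga6* and the endothelial list reach 0.71 in the LV, where *Itga7* is at -0.54 with the same list.

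Genes of the ligands were counted beside the receptors. Counts of called genes in these lists stand beside 11.1% of all genes called in RV PAB-F, 12.9% in LV AOB-F and 74.3% in RV against LV of Sham-F. Of laminins and other basement membrane genes, 7 of 13 were in the table. In RV PAB-F 5 of these 7 rose, against 11.1% of all genes, among them *Nid2* (nidogen 2, log2 fold change 1.02, SE 0.27, adjusted p = 0.00797), *Lama5* (0.81, SE 0.17, adjusted p = 0.000514) and *Lama4* (0.73, SE 0.14, adjusted p = 0.000162). The laminin receptor chain *Itga6* was also called higher there, a call that depended on single libraries. A link between these genes and *Itga6* was not tested. In LV AOB-F *Lamc1* (0.67, SE 0.12, adjusted p = 0.000178) and *Lama4* (0.39, SE 0.13, adjusted p = 0.0417) rose and *Lamb2* fell (-0.32, SE 0.10, adjusted p = 0.0262). In RV against LV of Sham-F all 7 were lower, with *Nid2* at -2.02, *Col4a1* at -1.96 and *Agrn* at -1.88. Their median there was -1.23, against -0.32 for the 7 integrin genes and -0.07 for all genes.

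Of fibronectin and other RGD or matricellular ligands, 10 of 12 were in the table. In RV PAB-F 6 of 10 rose, led by *Postn* (periostin, 3.202, SE 0.58, adjusted p = 7.35e-05), *Tnc* (tenascin C, 2.66, SE 0.68, adjusted p = 0.0063) and *Ctgf* (2.03, SE 0.26, adjusted p = 1.74e-08). In LV AOB-F 5 rose, led by *Spp1* (osteopontin, 4.12, SE 0.92, adjusted p = 0.0019), *Tnc* (3.96, SE 0.61, adjusted p = 1.52e-05) and *Postn* (2.52, SE 0.55, adjusted p = 0.00175). Osteopontin binds beta3 and beta5 integrins, and neither *Itgb3* nor *Itgb5* was called in LV AOB-F. In the RV of Sham-F 5 of the 10 were lower than in the LV, a smaller share than the 74.3% of all genes called, led by *Vtn* (-2.05), *Mfge8* (-1.30) and *Fbn1* (-1.22).

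Of 16 other integrin subunits 13 were in the table. In LV AOB-F 4 of them rose, *Itgam* (2.37, SE 0.49, adjusted p = 0.00098), *Itgb2* (2.18, SE 0.52, adjusted p = 0.00375) and *Itga4* (1.096, SE 0.36, adjusted p = 0.0324) among them, which are chains of leukocyte integrins, beside the 5 macrophage markers that rose. The mean normalized count of LV AOB-F was 183 for *Itgam* and 223 for *Itgb2*. In RV PAB-F 1 fell, *Itgad* (-0.91, SE 0.29, adjusted p = 0.0328). In RV against LV of Sham-F 3 were higher and 2 lower, with *Itgb6* at 1.59, *Itgad* at 1.31 and *Itgb4*, the partner of alpha6 in hemidesmosomes, at -1.32.

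Of the 20 listed proteins of the integrin adhesion complex, such as talin, kindlin and paxillin, 19 were in the table. In RV PAB-F 1 rose, *Tln1* (talin 1, 0.69, SE 0.10, adjusted p = 2.05e-06). In LV AOB-F 5 rose, with *Fermt2* (kindlin 2, 0.55, SE 0.13, adjusted p = 0.0025) and *Kank1* (0.50, SE 0.16, adjusted p = 0.0235) among them, and *Lims2* fell (-0.51, SE 0.14, adjusted p = 0.0101). In RV against LV of Sham-F 7 were higher and 9 lower, near the share of all genes called, with *Src* at -1.70, *Pxn* (paxillin) at -1.65 and *Zyx* (zyxin) at -1.34. Of the dystrophin glycoprotein complex, the other laminin receptor of the cardiomyocyte membrane, 9 of 10 genes were in the table. There 5 were higher and 3 lower in the RV of Sham-F, with *Sgcd* at 1.94, *Sgcb* at 1.71 and *Sspn* at 1.20 (adjusted p = 1.48e-13, 1.55e-13 and 2.08e-10). In LV AOB-F *Utrn* rose (0.47, adjusted p = 0.0348) and *Sgca* fell (-0.30, adjusted p = 0.0182).

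The list counts of LV AOB-F were lower without AOB-F rats 6 and 7. Without them 2.87% of all genes were called, with 0 of the 13 other integrin subunits (4 with both rats), 1 of 19 adhesion genes (6), 2 of 7 basement membrane genes (3), 2 of 10 fibronectin and RGD ligands (5) and 1 of 9 genes of the dystrophin complex (2). Fitted to LV AOB-F and LV Sham-F alone, 2 of the 10 fibronectin and RGD ligands were called and none of the other 4 lists, against 0.133% of all genes.

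By their 12 group means of log2 CPM, the genes most like *Itgb1* were *Stk38l* (r = 0.99), *Raph1* (r = 0.99) and *Nus1* (r = 0.98), and 407 of 9447 genes compared had an r over 0.9. Those most like *Itga7* were *Hdac3* (r = 0.93), *Ckap4* (r = 0.91) and *Slc7a5* (r = 0.91), and 5 genes had an r over 0.9. The 12 means share rats between the ventricles, so that these values are a description of likeness only.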

How the data were processed

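Per the labels and the study's methods, the authors trimmed the reads of ribosome-depleted libraries with Trim Galore, aligned them with STAR to the rat Rnor6.0 genome and counted them per gene with featureCounts, leaving out reads that overlap several genes. The deposited table gives raw counts per gene, the authors' normalized counts (a signal scaled by DESeq2 1.28.1 size factors, not used in tests here) and FPKM as the authors computed them. Raw counts of 82 libraries were fitted here with edgeR 4.0.16 in R 4.3.3, as 12 group means with TMM factors and quasi-likelihood tests, after filterByExpr kept 11954 of 17337 genes (1773 had no counts). The common coefficient of biological variation was 0.244, and p-values of 19 comparisons were Benjamini-Hochberg adjusted over all genes. DESeq2 1.42.0 and limma 3.58.1 served as alternatives, and Python 3.11.15 with scipy 1.17.1 for associations on log2 CPM with a prior count of 2. Scripts were tested on simulated data.

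RV and LV libraries with the same number came from the same rat. Their deviations from group means correlated with a median of 0.186 to 0.297 per condition, against -0.0686 to -0.0142 between rats. The integrin genes and all lists were chosen with earlier results of these data known. All 10 integrin genes were to be named whatever their values, at most 3 called genes of each other list by size of change in 3 comparisons, and the 3 genes most like *Itga7* and *Itgb1*. Intervals are 95% and come from the fit without a term for the rat. They rest on the spread between libraries within groups, estimated over all 12 groups. No pair of libraries agreed within sampling noise. The result of 1 listed gene is not reported here.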

Additional observations from a re-analysis of the deposited data

Results flagged for a closer look

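In 13 of 84 sets of 1 gene and 1 group a single library stood far from the others of its group by Dixon's test, where chance gives about 1 in 20, or 4.2. The same libraries recur across genes, so that the sets are not independent and the excess was not tested. Values are normalized counts, with the nearest other library beside them.

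The library LV AOB-H 6 was the highest of its group in *Itga1* (3820, next 2130) and *Itga6* (8191, next 5137) and the lowest in *Itga7* (6849.5, next 9893). The library LV Sham-F 3 was the highest in *Itga1* (2043, next 1076) and *Itga6* (6543, next 3070). LV PAB-H 2 was the lowest in *Itga1* (828, next 1827) and *Itgb1* (1864, next 6337), and LV PAB-F 5 the highest in *Itgb1* (5682, next 3385). *Itga1* was also highest in LV AOB-F 1 (2257, next 1524) and RV Sham-F 4 (1729, next 1546). *Itgb3* was highest in LV Sham-H 4 (178, next 71.8) and LV AOB-F 6 (179, next 116), and *Itgb5* lowest in RV AOB-H 6 (1511, next 1832).

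Of the 9 libraries named, 5 held the highest endothelial marker share of their group. These were LV AOB-H 6 (0.473%) and LV Sham-F 3 (0.321%), high in *Itga1* and *Itga6*, LV PAB-H 2 (0.216%), low in *Itga1* and *Itgb1*, LV Sham-H 4 (0.243%), high in *Itgb3*, and RV AOB-H 6 (0.242%), low in *Itgb5*. LV PAB-F 5 held the lowest endothelial share of its group, 0.144%, and the other 3 held neither. The same 5 libraries also held the highest fibroblast share of their group. LV AOB-H 6, LV PAB-H 2, LV Sham-H 4 and RV AOB-H 6 held the highest mural and macrophage shares too. LV PAB-F 5 held the lowest fibroblast, mural, macrophage and platelet shares and the highest cardiomyocyte share. Of the other 3, RV Sham-F 4 was first for macrophage and LV AOB-F 6 for platelet markers. The part of these shares in the values was not tested.

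Between Sham-F and Sham-H the difference of RV minus LV itself differed by 0.66 log2 units for *Itga1* (adjusted p = 0.019 by edgeR), by 0.86 for *Itgb1* (adjusted p = 0.033) and by -0.34 for *Itgb5* (adjusted p = 0.0233).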

How the results depend on the processing

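Over all alternatives no single integrin value reversed among those called, and 507 of the counts of called genes stayed within 1.5 times while 47 moved. The alternatives without the 5 LV libraries apart, without AOB-F rats 6 and 7 and with the gene-length trend removed were chosen after seeing the data. Fitted to the groups compared only, 4 genes were called in RV PAB-H (0 with all groups), 3 in RV PAB-F (1), 0 in LV AOB-F (3), 1 in RV against LV of Sham-H (0), 1 of AOB-H (2) and 3 in LV Sham-F against LV Sham-H (5). Over all genes that fit called 1499 in RV against LV of Sham-H (2510 with all groups) and 475 of AOB-H (954). It called 5927 in LV Sham-F against LV Sham-H (6860), and the shares for the other comparisons are given above. Without the 5 LV libraries apart, 1 integrin gene was called in RV PAB-H, 2 in RV PAB-F and 1 in RV against LV of AOB-H. Calls over all genes moved the same way. They were 1193 in RV PAB-H (538 with all libraries) and 2354 in RV PAB-F (1325), and fewer than with all libraries in RV against LV of AOB-H. Without rats 6 and 7 LV AOB-F had 1, beside 344 of all genes. With no filter on low counts RV PAB-F had 0 and LV Sham-F against Sham-H 3, beside 1193 and 6668 of all genes. With the length trend removed RV against LV of Sham-H had 1, beside 2804 of all genes. With library totals only RV against LV of AOB-F had 5 (3), beside 7963 of all genes. Under the study's criteria (log2 fold change 1, p 0.01, mean count 50) RV PAB-F had 0 and LV AOB-F had 1 (1.21% of all genes). RV against LV had 2 in Sham-F (27.7%), 1 in PAB-F (2030 of all genes), 0 in AOB-H and 1 in AOB-F (2613 of all genes). LV Sham-F against Sham-H had 0, and so had the difference of RV minus LV. Between different rats a replicate number is only a name, and with it as a block RV PAB-F had 0 (*Itga6* 0.48, adjusted p = 0.0845) and LV AOB-F 1 (*Itgb1* 1.001, adjusted p = 0.00668). Over all genes that block called 906 and 1209. With the rat as a block for RV against LV, no call changed beyond those given above for *Itga5*, *Itga6* and *Itgb1*. Leaving out 1 library at a time gave 0 to 1 called genes in RV PAB-F, 1 to 3 in LV AOB-F, 2 to 6 in LV Sham-F against Sham-H, 1 to 3 for the difference of RV minus LV, and in RV against LV 0 to 1 in Sham-H, 5 to 6 in Sham-F, 2 to 5 in PAB-F, 0 to 2 in AOB-H and 2 to 4 in AOB-F. Where leaving out single libraries or other settings changed a call, the cause was not tested. *Itgb3* rested on 18 to 271 raw counts per library, the fewest of the 7 genes, which limits its precision.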
